A study of Homo sapiens with 12 samples.

Results

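U937, an established human line of monocytic lymphoma cells, was compared after transfection of wild-type PML-RARA (PRWT) or of GFP alone. The comparison takes 8 of the 12 arrays of the series, 4 PRWT and 4 GFP, chosen by the construct named in the sample titles. Each construct was measured at 6 h and at 9 h with replicate numbers 1 and 2, so PRWT and GFP arrays of the same hour and number form 4 pairs. Cells had been electroporated with a pEGFP plasmid carrying GFP alone, or GFP joined to the fusion (GFP-PRWT), and GFP-positive cells were sorted before RNA was taken. All cells of the comparison therefore went through electroporation and sorting, and all carry GFP. The third construct of the series, GFP-PR2VR, gave the other 4 arrays, which enter no difference given here but count in the estimate of the spread, in the filter on low signals and in the choice of each gene's probe set. The titles count hours from infection for PRWT and from transfection for GFP, and a difference in procedure cannot be told apart from the construct. The labels do not say whether the 2 numbers of a group came from separate transfections, and p-values here speak for the scatter among these arrays alone, and that scatter may be technical. U937 is 1 cell line, and it was sampled within hours of transfection.

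PML-RARA is the product of the chromosome translocation of acute promyelocytic leukemia. It joins most of PML, a scaffold of nuclear bodies, to the DNA-binding and ligand-binding parts of the retinoic acid receptor RARA. It binds DNA at retinoic acid response elements and at sites shared with the myeloid factor PU.1, where it recruits corepressors such as NCOR1 and histone deacetylases, and retinoic acid releases these and leads to degradation of the fusion. In monocytic cells without the fusion, RARA with its partner RXR turns on differentiation genes when retinoic acid is bound.

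The arrays measure RNA as a MAS5 signal, an intensity on a linear scale, with a trimmed mean of 1500.2 on every array and medians from 238.8 to 435.8. The 3 arrays of 9 h number 2, 1 per construct, stood apart from the other 9 on the first principal component (59.8 to 77.7 against -36.4 to -7.3). Leaving them out changed the sign of 1 of 74 genes followed over both hours (RAP1A, from 0.07 to -0.07). The ratio of 3′ to 5′ GAPDH signal, a sign of RNA quality, was 5.27, 4.79, 12.43 and 2.75 on the GFP arrays and 4.04, 8.28, 8.14 and 2.21 on the PRWT arrays, higher with PRWT in 1 of 4 pairs. Of 10 U937 markers, 9 lay above the signal of 168.9 used as a filter. They included the leukocyte gene PTPRC (median 21600), lysozyme (LYZ, 9270) and the integrin chain ITGB2 (8800), while SPI1, which encodes PU.1, had a median of 133 and lay below it. Markers of other cell types passed the filter too: 3 of 3 B cell genes (PAX5 with a median of 4600, CD79A 1090 and MS4A1 272), 2 of 5 T cell genes (CD2 392 and CD3D 204, with CD3E at 103), 1 of 4 epithelial genes (KRT8 452, with EPCAM at 124), 2 of 3 fibroblast genes (COL1A1 858 and DCN 338) and 1 of 2 erythroid genes (HBB 374). Signals of different probe sets cannot be ranked against each other, so these values are no measure of how much of each RNA was present. These arrays measure bulk RNA, so fewer cells of a type and less RNA per cell cannot be told apart.

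The transfected fusion was seen first, in probe sets of both its partners. The brightest of the RARA probe sets read 63.4, 48.2, 63.4 and 309.2 on the GFP arrays, in the order 6 h number 1, 6 h number 2, 9 h number 1 and 9 h number 2, which is kept below. In the same order it read 58985, 11970.8, 32912.3 and 54610.5 on the PRWT arrays. Every PRWT array lay above every GFP array. On the log2(signal + 62.5) scale used for all differences, RARA rose by 7.72 ± 0.33 (SE, 4 pairs, limma adjusted p = 1.5e-06), with 8.87, 6.76, 8.03 and 7.20 in the 4 pairs. Of the GFP signals, 3 lay at about the pseudocount and below the filter, so RARA passed the filter through the arrays that carry the fusion and the size of the difference depends on the pseudocount (8.29 with 16 and 6.79 with 200) and on the probe set (2.44 as the mean of all RARA sets). An exact sign-flip permutation test over the pairs gave p = 0.125 (two-sided), the smallest that 4 pairs allow.

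The other probe sets of RARA and PML did not all follow. Of the 5 RARA probe sets, 216300_x_at read 671.1, 624.3, 534.3 and 181.9 with GFP and 6792.6, 5166.4, 6548.2 and 5604.7 with PRWT, a rise of 3.54 ± 0.27 (adjusted p = 0.00034 over 41091 probe sets). Sets 203749_s_at (-0.09 ± 0.24) and 203750_s_at (-0.12 ± 0.41) lay near 0, and 1565358_at gave 1.13 ± 0.33 with an adjusted p of 0.65. For PML, set 210362_x_at read 168, 518.4, 396.8 and 409.4 with GFP and 3951.1, 3368.1, 4207.6 and 5895.6 with PRWT, a rise of 3.39 ± 0.35 (adjusted p = 0.0044). The brightest of the PML sets differed by 0.11 ± 0.20, and the other 8 of 10 lay between -0.44 and 0.35. Which transcript region each probe set reads was not used here.

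Tested one by one, 9 of the 41091 probe sets passed, in 7 genes. The largest differences below 0 among them were in 2 of the 4 probe sets of RAP1A, a small GTPase of integrin signalling, which was singled out after its values were seen. Set 1555339_at read 85593, 104243, 97617.5 and 92508 with GFP and 1652.2, 3341.9, 2364.5 and 21434.3 with PRWT, and fell by 4.50 ± 0.47 (adjusted p = 0.0044). Set 1555340_x_at read 42291.7, 104446.3, 48172.2 and 104113.9 with GFP and 1638.1, 4764.2, 2757.6 and 16092.7 with PRWT, and fell by 3.97 ± 0.34 (adjusted p = 0.00068). In both sets every GFP array lay above every PRWT array. The brightest RAP1A set, 202362_at, differed by 0.07 ± 0.24 and 228548_at by -0.10 ± 0.31, so RAP1A was not called in the fit with 1 set per gene, and what the 2 passing sets hybridized to was not tested. In addition to RARA and PML, the remaining passing sets belonged to KLF6, ARID5B, BIN1 and CDKN1A, described next.

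**Figure D1:**
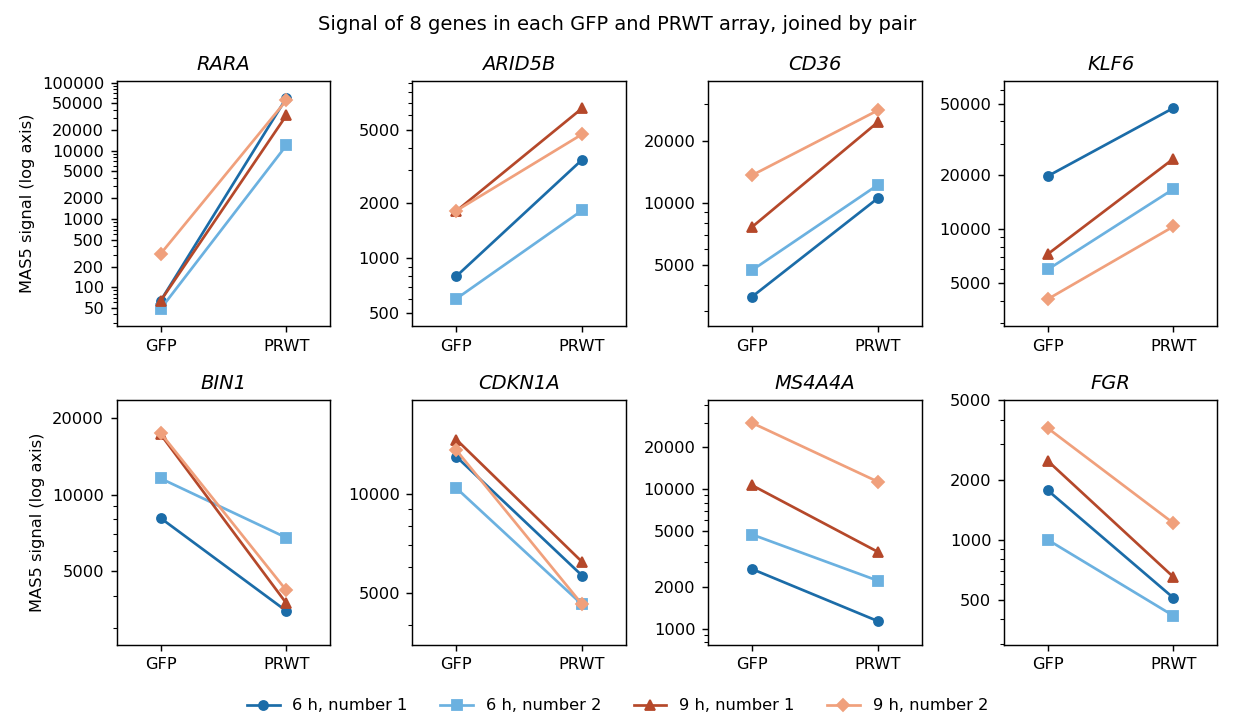
MAS5 signal (log axis) of 8 genes on each GFP and PRWT array, with lines joining the arrays of the same hour and replicate number. RARA runs from 48.2 to 309.2 with GFP and from 11970.8 to 58985 with PRWT, ARID5B, CD36 and KLF6 go up in all 4 pairs, and BIN1, CDKN1A, MS4A4A and FGR go down in all 4.

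With 1 probe set per gene, RARA was the only one of 13959 genes to pass over both hours in limma with the pair's set as a block (0.00716% of genes), and 760 genes had an unadjusted p under 0.05 (5.44%). That count was 471 without the GFP array of 9 h number 1, and 1634, 1394, 363 and 418 without the 3 arrays of 6 h number 1, 6 h number 2, 9 h number 1 and 9 h number 2. The 15 genes per direction with the smallest p and the same sign in all 4 pairs are therefore given as values. Over all genes, 8.5% were higher and 8.4% lower with PRWT in all 4 pairs. Adjusted p values of the 29 besides RARA ran from 0.068 to 0.34, and without the block from 0.90 to 1, where 2.06% of genes had an unadjusted p under 0.05. When the spread was estimated from the 8 PRWT and GFP arrays alone, 28 genes passed (0.201%), 21 of them among these 30, in a fit with only 2 residual degrees of freedom.

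The higher genes included 6 transcription factors. ARID5B, a DNA-binding partner of a histone demethylase, read 798, 601.6, 1806.8 and 1813.2 with GFP and 3429, 1817.8, 6533.4 and 4720 with PRWT, a difference of 1.67 ± 0.24 (adjusted p = 0.068). Its groups did not overlap, though the highest GFP array (1813.2) and the lowest PRWT array (1817.8) nearly met, since both constructs read higher at 9 h. KLF6, a zinc finger factor of growth control, read 19786.5, 5969.5, 7274.6 and 4079.5 with GFP and 47416.3, 16760.3, 24715.3 and 10358 with PRWT. Its groups overlapped because the pairs lay at different levels, while the difference stayed between 1.26 and 1.76 in every pair (1.46 ± 0.21, adjusted p = 0.068). Of its 5 probe sets, 4 gave 1.24 to 1.46, of which 208961_s_at passed over all probe sets (adjusted p = 0.027), and 211610_at gave -0.17 ± 0.50.

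SOX4, a factor of progenitor cells, read 2979.8, 1795.5, 3628.7 and 1412.8 with GFP and 7336.4, 3948.2, 6246.3 and 4161 with PRWT. Its groups did not overlap, and the difference was 1.17 ± 0.21 (adjusted p = 0.14). TCF7L2, the factor that carries Wnt signals to genes, differed by 1.03 ± 0.17 (adjusted p = 0.099) and by 0.90 to 1.20 in the pairs. ATF4, the factor of the amino acid response, differed by 0.76 ± 0.15 (adjusted p = 0.22), from a GFP signal of 26222.3 to 59934.7. WT1, a zinc finger factor often high in acute leukemia, read 440.4, 652.5, 329.4 and 715.1 with GFP and 1064.5, 1380.2, 784.9 and 1644.6 with PRWT. Its pair differences were nearly equal, from 1.01 to 1.16 (1.11 ± 0.25, adjusted p = 0.34).

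Membrane and signalling genes formed a further set. CD36, a scavenger receptor for oxidized lipids, read 3522.5, 4733, 7660.8 and 13629.2 with GFP and 10537.5, 12220.7, 24588.6 and 28050.6 with PRWT. The 9 h number 2 GFP array lay above both 6 h PRWT arrays, so the groups overlapped, yet PRWT lay above GFP in each pair, by 1.04 to 1.67 (1.41 ± 0.21, adjusted p = 0.068). IRS2, an adaptor of the insulin receptor, read 9628.1, 7593.6, 9554.2 and 4341.5 with GFP and 24538.5, 15050.3, 20607.8 and 12540 with PRWT. These groups were apart (1.24 ± 0.19, adjusted p = 0.068). CYTIP, which regulates leukocyte adhesion, differed by 1.29 ± 0.21 (adjusted p = 0.094), the glucose transporter SLC2A3 by 1.28 ± 0.22 (0.12) and RGS1, a brake on G protein signals of chemokine receptors, by 1.55 ± 0.35 (0.32). The Notch ligand JAG1 differed by 0.90 ± 0.20 (0.31), unequally by hour as given below.

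Secreted products completed the higher genes. PTX3, a soluble pattern recognition protein, read 4669.1, 3938.9, 6733.8 and 3630.7 with GFP and 14489.7, 8440.7, 18140.4 and 17854 with PRWT. The groups were apart, with a difference of 1.60 ± 0.34 (adjusted p = 0.26, and 0.015 from the 8 arrays alone). COL21A1, a collagen chain, gave 1.72 ± 0.36 (adjusted p = 0.25) and the most uneven pairs of these genes, from 0.80 to 3.04. PTGS2, the inducible prostaglandin synthase, lay outside the 15 but passed from the 8 arrays alone. It read 906.2, 477.9, 547.8 and 473.2 with GFP and 3179.8, 1198.4, 1506.9 and 2472.4 with PRWT (1.64 ± 0.42, adjusted p = 0.37 with all arrays and 0.033 with 8). Without the block PTGS2 did not pass. Of the 15 higher genes, 7 had groups that did not overlap, RARA among them, against 0.817% of all genes. The choice of genes by p and by sign in all pairs favours such groups, so this excess adds no support.

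Among the lower genes, BIN1 and CDKN1A had the smallest p. BIN1, a membrane-bending protein that also binds MYC, read 8094.5, 11583.2, 17247.2 and 17450.2 with GFP and 3498.7, 6783.1, 3752.3 and 4215 with PRWT. Every PRWT array lay below every GFP array, and the difference was -1.54 ± 0.20 (adjusted p = 0.068, and 0.021 for its probe set over all probe sets). CDKN1A, the p21 inhibitor of cyclin-dependent kinases, read 13014.8, 10439.3, 14677.9 and 13616.7 with GFP and 5656, 4617.3, 6226.2 and 4624.4 with PRWT. Its groups were well apart and the pairs even, from -1.55 to -1.17 (-1.28 ± 0.18, adjusted p = 0.068, and 0.033 over all probe sets).

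The lower genes also included surface, signalling and transcription factor genes of myeloid cells. MS4A4A, a macrophage surface protein, read 2671.7, 4724.3, 10641.2 and 29777.3 with GFP and 1133.1, 2208, 3553.2 and 11302.6 with PRWT. Its level differed more between pairs than between constructs, so the groups overlapped, and PRWT lay below GFP by a like amount in each pair (-1.31 ± 0.20, adjusted p = 0.068). FGR, a Src family kinase of myeloid cells, read 1764.1, 997.3, 2479.2 and 3618 with GFP and 510.3, 415.2, 649.3 and 1209.1 with PRWT (-1.55 ± 0.25, adjusted p = 0.094), again lower in every pair with overlap between groups. CEBPB, a factor of macrophage differentiation, read 25867.6, 34105.2, 35027.6 and 19183.5 with GFP and 7436.6, 20392.7, 17013.8 and 8449.5 with PRWT. It was lower in every pair with 1 PRWT array (20392.7) above the lowest GFP array (-1.19 ± 0.20, adjusted p = 0.11). RAB20, a phagosome GTPase, differed by -1.47 ± 0.26 (adjusted p = 0.13).

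Receptors and regulators of cytokine signalling formed a further group. IL10RA, the ligand-binding chain of the interleukin 10 receptor, read 20015, 24588.4, 24327.3 and 22470.7 with GFP and 13550.2, 13601.1, 8496 and 8787.3 with PRWT. All PRWT arrays lay below all GFP arrays (-1.07 ± 0.20, adjusted p = 0.15). IFNAR2, a chain of the type I interferon receptor, read 10738.5, 10341.1, 14696.7 and 9788.8 with GFP and 4444.5, 4282.1, 7759.1 and 5407 with PRWT, also apart (-1.07 ± 0.20, adjusted p = 0.14). The chemokine receptor CCR7 gave -1.39 ± 0.26 (0.15). SOCS1, an inhibitor of JAK kinases, gave -1.81 ± 0.30 (0.10), but its other probe set above the filter, 213337_s_at, gave 0.33 ± 0.36, so its direction is uncertain.

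The last lower genes were of mixed function. SLC23A2, a vitamin C transporter, read 4804.7, 4588, 5411.1 and 5317.4 with GFP and 2035.2, 2006, 2388.8 and 2397.3 with PRWT, the most even of the named genes with pair differences of -1.21 to -1.13 (-1.17 ± 0.22, adjusted p = 0.15). WARS1, the tryptophan tRNA synthetase induced by interferon gamma, gave -0.96 ± 0.17 (0.13), the secreted superoxide dismutase SOD3 -1.47 ± 0.27 (0.15) and IGFBP6, which binds insulin-like growth factors, -1.75 ± 0.31 (0.13). IGHG1 gave -2.13 ± 0.35 (0.099) and is uncertain, since immunoglobulin heavy chain genes are near-identical. Of the 15 lower genes, 10 had groups that did not overlap, against 0.831% of all genes. Here too the choice of genes favours such groups, and the excess adds no support. Across the 30 genes, 15 had another probe set above the filter, 38 such sets in all, and 4 of these in 3 genes (RARA, KLF6 and SOCS1) had the opposite sign.

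**Figure D2:**
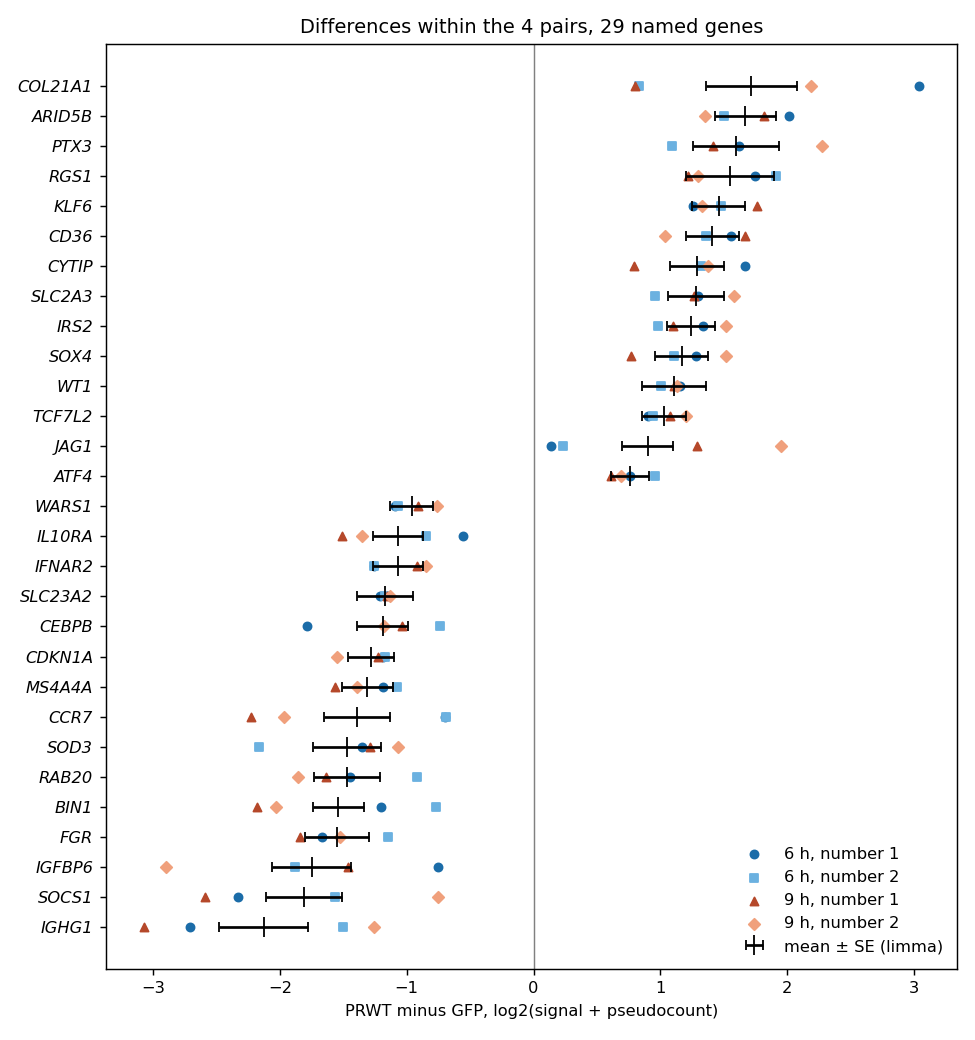
PRWT minus GFP on the log2(signal + 62.5) scale in each of the 4 pairs (symbols), with the limma mean ± SE (bars), for the 29 named genes other than RARA. All symbols of a gene lie on 1 side of 0, which the choice of genes required; SLC23A2 and WT1 have the tightest pairs and COL21A1 and IGFBP6 the widest.

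Since the fusion binds retinoid elements and PU.1 sites, the promoters of the named genes were read in the RefSeq promoter table (GRCh38.p14, 250 bases before to 50 after each gene's start), which held 23 of the 29 besides RARA, itself left out as the transfected gene. The searches, on both strands, were for the retinoid half-site AGGTCA with its variants GGGTCA and AGTTCA as well as GGTTCA, and for the PU.1 core motif GAGGAA; a match of 1 may share letters with a match of another. At least 1 half-site was found in 8 of 13 promoters of higher genes and in 2 of 10 of lower genes, against 38.7% of 27305 promoters. Taken singly, AGGTCA was in 4 of the 23 (13.9% of all promoters), GGGTCA in 1 (14.2%), AGTTCA in 6 (10.5%), GGTTCA in 1 (8.62%) and GAGGAA in 10 (27.6%). Both a half-site and GAGGAA were in 5 of the 23 and in 11.1% of all promoters. These 5, from 3 higher genes (CYTIP, PTX3 and SOX4) and 2 lower genes (IL10RA and SOD3), are shown 5′ to 3′ on the gene's strand, with each match in capitals, whichever strand it reads on.
CYTIP: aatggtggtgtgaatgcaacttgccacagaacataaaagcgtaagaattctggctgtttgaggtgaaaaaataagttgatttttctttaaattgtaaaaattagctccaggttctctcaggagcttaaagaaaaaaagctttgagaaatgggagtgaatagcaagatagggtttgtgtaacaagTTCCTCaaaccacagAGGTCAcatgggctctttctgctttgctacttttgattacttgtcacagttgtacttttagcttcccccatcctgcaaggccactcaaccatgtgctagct
PTX3: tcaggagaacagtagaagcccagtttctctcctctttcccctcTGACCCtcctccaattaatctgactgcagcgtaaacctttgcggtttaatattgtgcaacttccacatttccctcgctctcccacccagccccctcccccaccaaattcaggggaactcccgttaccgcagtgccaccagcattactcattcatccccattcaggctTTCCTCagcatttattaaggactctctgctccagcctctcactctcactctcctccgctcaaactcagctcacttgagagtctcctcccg
SOX4: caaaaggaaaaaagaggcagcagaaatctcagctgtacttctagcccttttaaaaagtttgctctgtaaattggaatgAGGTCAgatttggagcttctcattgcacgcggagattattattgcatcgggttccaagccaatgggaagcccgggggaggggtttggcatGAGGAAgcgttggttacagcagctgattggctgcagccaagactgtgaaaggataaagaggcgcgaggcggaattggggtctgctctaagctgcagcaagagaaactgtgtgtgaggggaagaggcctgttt
IL10RA: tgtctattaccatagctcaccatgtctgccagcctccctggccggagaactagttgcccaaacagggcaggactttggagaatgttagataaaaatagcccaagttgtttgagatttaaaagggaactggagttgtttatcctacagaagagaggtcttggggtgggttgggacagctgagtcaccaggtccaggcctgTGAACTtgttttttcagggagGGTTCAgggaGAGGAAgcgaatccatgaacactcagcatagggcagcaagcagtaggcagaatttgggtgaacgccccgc
SOD3: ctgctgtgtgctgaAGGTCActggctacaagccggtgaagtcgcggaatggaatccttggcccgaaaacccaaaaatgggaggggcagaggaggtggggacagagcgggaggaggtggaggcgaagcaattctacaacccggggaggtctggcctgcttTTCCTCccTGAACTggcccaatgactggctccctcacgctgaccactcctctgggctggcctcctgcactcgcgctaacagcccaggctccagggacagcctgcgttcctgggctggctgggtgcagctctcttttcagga
CYTIP lies at chr2:157444040-157444339 (minus strand), PTX3 at chr3:157436600-157436899 (plus strand), SOX4 at chr6:21593501-21593800 (plus strand), IL10RA at chr11:117989695-117989994 (plus strand) and SOD3 at chr4:24795323-24795622 (plus strand). In the CYTIP promoter GAGGAA reads on the opposite strand (as TTCCTC) close before AGGTCA, and in the IL10RA promoter GGTTCA stands just before GAGGAA. A match is a description of these letters and no evidence that the fusion binds there; binding was not measured.

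The retinoid genes were then taken as groups, each beside all genes tested, of which 49.4% lay below 0 with a median of 0.0. These lists and those below were chosen with earlier results of these data known. Their counts are therefore descriptions and no independent support for an effect. Of 26 gene symbols listed as induced by retinoic acid in myeloid cells, 19 were tested and 19 lay below 0, with a median of -0.47. At an unadjusted limma p under 0.05 there were 5, all lower (3.02% of all genes were lower at that p). None passed after adjustment. The list's median was -0.40, -0.21, -0.54 and -0.49 in the 4 pairs and ran from -0.49 to -0.33 over all alternative settings. DHRS9, a retinol dehydrogenase, read 16650.8, 16604.4, 40168.8 and 48793.4 with GFP and 7605.5, 11354.2, 13017.2 and 14913.7 with PRWT. Its groups were apart (-1.25 ± 0.27, adjusted p = 0.28, and 0.015 from the 8 arrays alone). Without the block DHRS9 did not pass. ITGAM, the CD11b integrin chain, gave -0.80 ± 0.26, the NAD-consuming surface enzyme CD38 gave -0.66 ± 0.22 and the adhesion molecule ICAM1 gave -0.65 ± 0.22, with adjusted p of 0.64, 0.65 and 0.67. The other ITGAM set above the filter, 205785_at, gave 0.08 ± 0.41. Of the other ICAM1 sets, 202638_s_at gave -0.88 ± 0.22 and 215485_s_at gave 0.06 ± 0.39. In its brightest set ICAM1 read 2524, 2699.2, 3068.8 and 2859 with GFP and 1319.6, 1996.3, 1764.9 and 2020.4 with PRWT, with no overlap. The retinoid receptors and enzymes (13 tested, RARA among them) had a median of -0.08, and DHRS3, a retinaldehyde reductase, gave -0.61 ± 0.29.

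The cofactors of nuclear receptors had small differences. Of 18 tested, 10 lay above 0, with a median of 0.06 and a range of -0.28 to 0.63, the highest being TBL1X, a subunit of the NCOR complex (0.63 ± 0.20, adjusted p = 0.62). The TBL1X sets 213401_s_at (-0.37 ± 0.39) and 1570293_at (-0.05 ± 0.43) went the other way. Its remaining sets above the filter gave 0.20 to 0.81. PML nuclear body components (15 tested) had a median of -0.03, and none had an unadjusted p under 0.05.

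Interferon and inflammatory genes were mostly lower. Of 34 interferon response genes tested, 29 lay below 0 with a median of -0.31, 7 were lower at an unadjusted p under 0.05 (3.02% of all genes) and none was higher (2.42%), and none passed after adjustment. OAS1, an RNA-sensing synthetase, read 11683.6, 20277.4, 20212.2 and 14174.4 with GFP and 6701.6, 11055.8, 14073.6 and 8045.8 with PRWT, lower in every pair with overlap between groups (-0.75 ± 0.19, adjusted p = 0.39). The exonuclease ISG20 gave -0.96 ± 0.23 and IRF1, a factor of interferon gamma responses, -0.94 ± 0.29. IRF1 read 14017.1, 11605.4, 8734.9 and 3698.4 with GFP and 4534.3, 6827, 4710.1 and 2558.8 with PRWT. Among 26 NF-kB targets and cytokines, 18 lay below 0 (median -0.25), 7 lower and 2 higher at that p, beside the same shares of all genes. NFKBIA, the NF-kB inhibitor, gave -0.73 ± 0.18 and TNF -0.67 ± 0.19. The TNF pairs gave -1.03 and -1.29 at 6 h and -0.38 and 0.03 at 9 h. PTGS2 and the chemokine CXCL8 (0.69 ± 0.20) went the other way. The list therefore held members on both sides, and none passed.

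Monocyte surface genes had smaller medians. Of 21 monocyte and macrophage markers, 16 lay below 0 (median -0.17), with CD36 the highest and MS4A4A the lowest. CSF1R, the receptor of the macrophage growth factor, read 665, 629.5, 934.6 and 873.5 with GFP and 399.6, 379.3, 429.5 and 618.2 with PRWT, without overlap (-0.70 ± 0.26, adjusted p = 0.75). Of 20 cytokine receptors, 15 lay below 0 (median -0.23), and of 21 integrins and adhesion molecules, 14 (median -0.17), with ICAM2 at -0.85 ± 0.24 and the fibronectin receptor chain ITGA5 at -0.77 ± 0.20. Fc receptor, complement and phagocytosis genes were mixed, with 7 of 17 above 0 (median -0.05). At an unadjusted limma p under 0.05, 3 were higher (2.42% of all genes) and 5 lower (3.02% of all genes). CD93, a receptor of phagocytes, gave -0.64 ± 0.16 with no overlap between groups, and FCER1G, the signalling chain of Fc receptors, gave 0.73 ± 0.26. The FCER1G pairs gave 1.30 and 2.02 at 6 h and 0.23 and -0.61 at 9 h. Coagulation and fibrinolysis genes had 6 of 14 above 0 (median -0.06), with the urokinase receptor PLAUR at -0.54 ± 0.17 and ANXA2, which binds plasminogen activator, at 0.36 ± 0.15, neither with overlap. Granule proteins (13 tested) had a median of -0.11. Among 19 myeloid transcription factors the median was 0.12, with MYB, a factor of progenitors, at 0.71 ± 0.19 and CEBPB the lowest. MYB read 14611.4, 11199.2, 15489.4 and 6883.4 with GFP and 24111.8, 17390.4, 24671.6 and 12227.1 with PRWT, with pair differences of 0.63 to 0.82.

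The amino acid and ATF4 stress list leaned the other way, with 21 of 26 members above 0 (50.6% of all genes were) and a median of 0.19. At an unadjusted limma p under 0.05, 4 were higher (2.42% of all genes) and 2 lower (3.02% of all genes). TRIB3, a pseudokinase target of ATF4, read 5823.1, 5670.2, 5644.5 and 3647 with GFP and 8451.6, 11440.4, 10166.6 and 6232.5 with PRWT, apart in all arrays (0.79 ± 0.23, adjusted p = 0.53). CEBPB and WARS1, also in this list, lay at its lower end, and ATF5, a related factor, gave -1.06 ± 0.25. The other ATF5 sets above the filter gave -1.19 ± 0.25 (204999_s_at), -0.26 ± 0.38 (230938_x_at) and 0.23 ± 0.38 (217389_s_at). Ribosomal protein genes (26 of 28 above 0, median 0.14) and oxidative phosphorylation subunits (22 of 29, median 0.13) were slightly above 0, with their highest pair medians at 6 h number 2 (0.40 and 0.41), and over the alternative settings their medians ran down to -0.01 and -0.03. Genes of DNA replication (29 tested) had a median of 0.04 and mitotic genes (30 tested) one of -0.15. Markers of other cells, of which few were above the filter, had medians of -0.14 (T cell, 6 tested), -0.19 (B cell, 7), -0.08 (erythroid and megakaryocyte, 4) and 0.10 (epithelial and fibroblast, 6), and their part in the results was not tested.

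**Figure D3:**
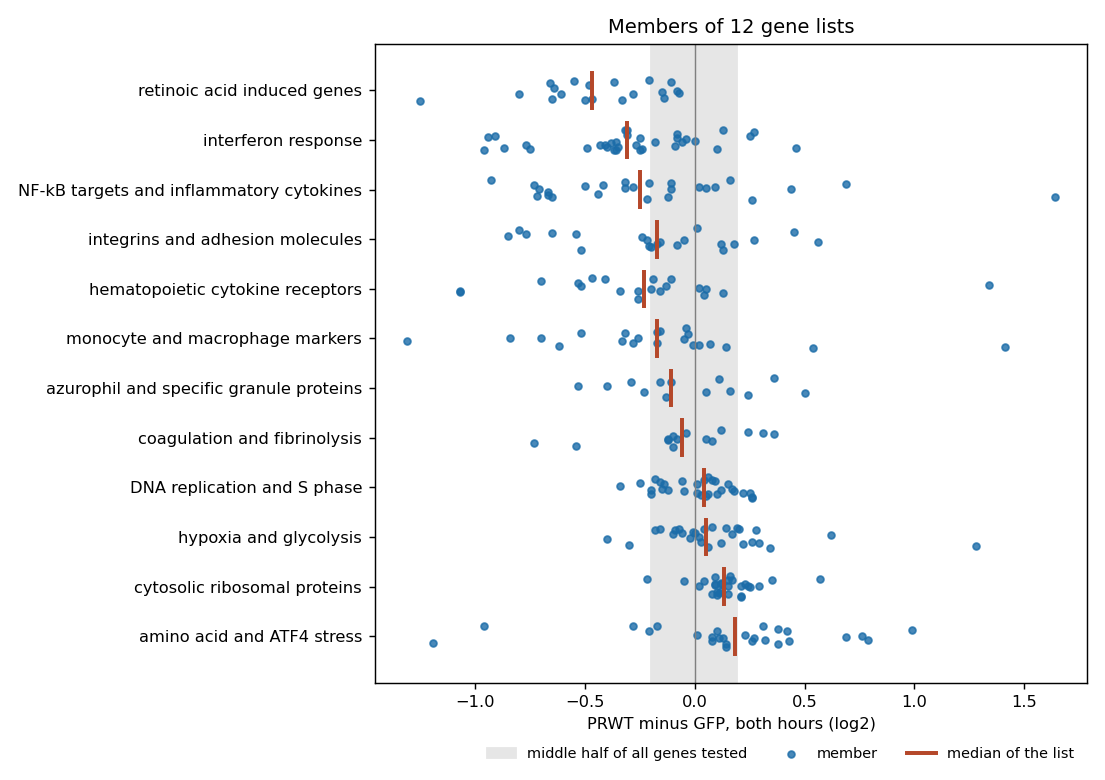
PRWT minus GFP over both hours (log2) of the tested members of 12 gene lists (points), with each list's median (vertical bar) and the interquartile range of all genes tested (grey band). All 19 retinoic acid induced genes lie left of 0, most interferon genes do too, and the ATF4 list has its median at 0.19 with CEBPB at -1.19. The lists were chosen with earlier results of these data known.

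By hour, RARA passed at 6 h (7.82 ± 0.46, adjusted p = 5.3e-05) and at 9 h (7.62 ± 0.46, adjusted p = 6.9e-05) and was the only gene to pass at either (0.00716% each), with 4.87% and 4.79% of genes at an unadjusted p under 0.05. The 9 h count was 0 without the 3 arrays of 9 h number 1, and 7 or 8 without those of 6 h number 1 or number 2. No gene passed for the difference between hours, where 471 had an unadjusted p under 0.05 (3.37%), and the smallest adjusted p was 1, with a median SE of 0.55. Among the 5 genes per direction with the smallest p at 6 h, ARID5B, CYTIP and CD36 were higher and CDKN1A, SOCS1 and SOD3 lower, as over both hours. PIM1, a kinase gene induced by STAT factors, read 9994.8, 9309.8, 5918.3 and 3979.2 with GFP and 4397, 3526.5, 4133.5 and 2878.9 with PRWT. Its 6 h pairs gave -1.17 and -1.38 and its 9 h pairs -0.51 and -0.46. RPL39L, a ribosomal protein gene, had the largest 6 h value other than RARA, 3.06 ± 0.51, of which the 6 h number 2 pair gave 4.12, from a GFP array at 18.2, far below the filter.

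At 9 h, BIN1 gave -2.11 ± 0.28 (adjusted p = 0.10) against -0.98 at 6 h. CCR7 read 1118.2, 727.5, 1845.8 and 911.2 with GFP and 666.1, 427.7, 344.6 and 186.8 with PRWT, with pair differences of -0.70 and -0.69 at 6 h and -2.23 and -1.97 at 9 h. JAG1 read 3287.9, 6049.9, 3597.3 and 1582.1 with GFP and 3628.1, 7084.9, 8861.9 and 6307.1 with PRWT, close to GFP in the 6 h pairs (0.14 and 0.23) and 1.29 and 1.95 above it in the 9 h pairs. The difference between hours for JAG1 was 1.44 ± 0.40, with an adjusted p of 1. LINC01569, a noncoding RNA gene, read 48.5 and 53.7 with PRWT at 9 h against 722.1 and 509.6 with GFP, and 409.1 and 475 against 591.8 and 508.3 at 6 h. AXL, a receptor for dying cells, gave 0.10 and 0.06 in the 6 h pairs and -2.28 and -2.08 in the 9 h pairs, from GFP signals of 381.4 to 886.6. These genes had their larger differences at 9 h in both pairs, and none of these contrasts between hours passed.

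Some genes had opposite signs at the 2 hours. PLEC, a linker of the cytoskeleton, gave -1.49 and -0.96 at 6 h and 1.16 and 1.70 at 9 h (difference 2.66 ± 0.66). SMARCD1, a subunit of the SWI/SNF remodelling complex, gave 1.44 and 0.35 and then -1.43 and -1.31 (difference -2.27 ± 0.48), and SAMD15 1.83 and 1.67 and then -1.76 and -3.64 (-4.45 ± 0.91). Another set of each gene above the filter had mixed signs within each hour. SMARCD1 203183_s_at read 400, 335.7, 407.7 and 826.7 with GFP and 299.6, 355.6, 448.1 and 631.2 with PRWT. SAMD15 1557681_s_at read 340.1, 171, 71.9 and 379.7 with GFP and 275.5, 254.1, 183.5 and 268.3 with PRWT. HADHA, an enzyme of fatty acid oxidation, was lower at 6 h only in its brightest set, by -2.38 and -0.92, with 0.17 and -0.10 at 9 h. Its other sets had 6 h pairs of mixed sign. At 6 h, 208631_s_at read 16021.2 and 24273.1 with GFP and 21799.3 and 16056.6 with PRWT. Set 208629_s_at read 7700.5 and 10002.9 with GFP and 8432 and 9322.4 with PRWT. The contrasts between hours of these genes all had an adjusted p of 1, and with 2 pairs an hour these values are no more than descriptions.

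**Figure D4:**
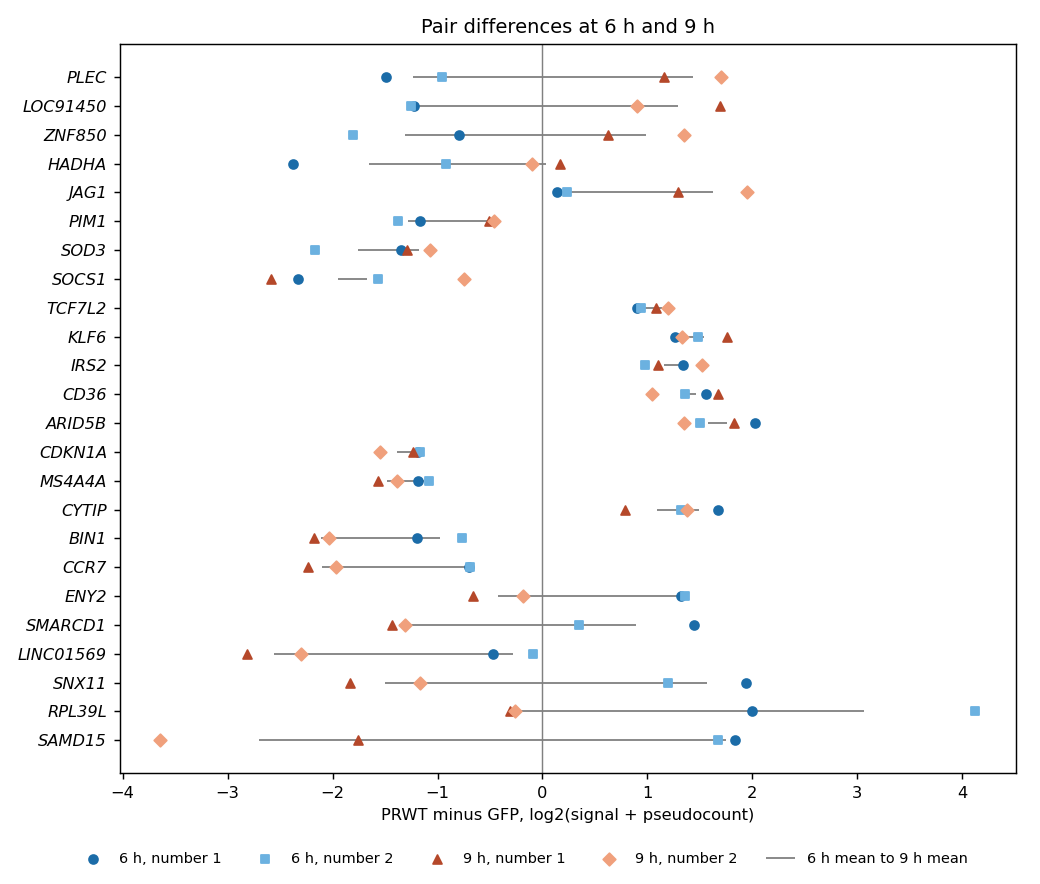
PRWT minus GFP (log2) in the 2 pairs of 6 h and the 2 pairs of 9 h for the genes named at either hour or between hours other than RARA, with a line from the 6 h mean to the 9 h mean. KLF6, CDKN1A and TCF7L2 have short lines; JAG1, BIN1 and CCR7 reach further at 9 h and PLEC and SAMD15 cross 0.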

How the data were processed

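RNA of U937 cells was measured on 12 Affymetrix arrays (3 constructs, 2 hours, 2 replicate numbers), grouped by title. The authors computed the intensity with MAS5, per the submitters' processing notes (version not given in the sources used here), and it was not normalized further. Detection calls were not used here, and depth is not defined for arrays; their number limits the precision.

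The log2 scale is that of signal plus a pseudocount of 62.5 (the deposited values' 20th percentile), which understates changes of dim genes. Of 54675 probe sets, 41091 had 1 gene symbol, 1801 several and 11721 none (62 were controls). Entrez numbers of 41037 matched RefSeq and 0 symbols changed. For each gene the probe set with the highest mean was used, and 13959 genes with a mean of at least 7.85 (log2) over all arrays were tested.

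Differences were fitted with limma 3.58.1 in R 4.3.3 on all 12 arrays, with 6 group means, the set of arrays of 1 hour and number as a block (4 residual degrees of freedom) and a variance trend; errors are SE and adjusted p is Benjamini-Hochberg over all genes, with a threshold of 0.05. The pairing comes from the titles: deviations of same-numbered GFP and PRWT arrays from their group means correlated at r = 0.36 at 6 h and 0.596 at 9 h, and all 6 such correlations between constructs were over 0.1. The fit over both hours was tested on 5 simulated data sets with 200 changed genes each. It called 272 of 500 changes of 1.5 (log2) and 455 of 500 changes of 3, and 31 unchanged genes. Changes smaller than 1.5 were not simulated. Gene names follow a rule: RARA and PML, 15 genes per direction by p with 1 sign in 4 pairs, up to 4 per gene list (40 lists), and 5 per direction in the hourly comparisons. Members, lists and rules were chosen with earlier results of these data known. Alternatives were no block, 8 arrays, other pseudocounts (16 and 200), filters, quantile normalization, no trend, mean of probe sets and leaving out arrays. After the data were seen, every probe set was also tested by itself.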

Additional observations from a re-analysis of the deposited data

Results flagged for a closer look

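In 148 groups of 4 arrays (74 genes, 2 constructs), 6 had 1 array far from the other 3; chance gives about 1 in 20. RARA was at 309.2 on the GFP array of 9 h number 2, against 48.2 to 63.4 on the other GFP arrays, so the fusion pair there gave 7.20. SLC2A3 was at 2337.1 on the PRWT array of 6 h number 2, against 5654.4 to 6626.5. DHRS3 was at 75.1 on the PRWT array of 9 h number 2, against 586.7 to 811.2. CD38 was at 999.6 on the GFP array of 6 h number 1, against 2760.7 to 2960.6. TRIB3 was at 3647 on the GFP array of 9 h number 2, against 5644.5 to 5823.1. FZD4, a Wnt receptor, was at 4516.1 on the GFP array of 6 h number 1, against 11100 to 12800.

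In 4 of 40 lists the median had 1 sign in both 6 h pairs and the other in both 9 h pairs, a difference that was not tested. PML nuclear body components had a median of -0.03 over both hours and -0.14, -0.25, 0.12 and 0.15 in the pairs. Heat shock proteins had 0.0 and -0.07, -0.03, 0.04 and 0.03, DNA replication genes 0.04 and -0.02, -0.04, 0.11 and 0.12, and oxidative phosphorylation subunits 0.13 and 0.03, 0.41, -0.06 and -0.01.

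Outside the human genes, the 27 control probe sets for Bacillus subtilis transcripts, which are spiked into RNA before labelling, had a median of 9796.1 on the 3 arrays of 9 h number 2 and 46.4 on the other 9. The 18 hybridization control sets read 56.0 and 47.5. Both constructs of the pair carry these signals (median 9796.1 with GFP and 10304 with PRWT), and their part in the separation of these arrays was not tested.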

How the results depend on the processing

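RARA passed over both hours under every alternative. The count of passing genes over both hours was 1, and 1 without the replicate block (the pairing), where 288 genes had an unadjusted p under 0.05; at 6 h, 9 h and between hours the counts without the block were 1, 1 and 0. It was 28 from the 8 PRWT and GFP arrays alone, 2 with no filter (BIN1 besides RARA) and 7 genes when every probe set was tested (chosen after seeing the data). Leaving out arrays gave 1 to 16 genes, with 16 without the 3 arrays of 6 h number 2 and 2 without those of 6 h number 1. At 6 h the count was 0 with the mean of all probe sets and 1 in every leave-out. At 9 h it was 2 from the 8 arrays and 0 to 8 in the leave-outs: 7 and 8 without the 6 h number 1 or number 2 arrays and 0 without those of 9 h number 1. PML, at 0.11, ran from -0.08 to 0.31 in the leave-outs (-0.08 without the PRWT array of 6 h number 2, -0.06 without all 3 arrays of that set; the cause was not tested). RAP1A, at 0.07, ran from -0.18 to 0.32, and was -2.13 as the mean of its probe sets, 2 of which fell. None of the other genes followed over both hours changed sign. Between hours, 0 genes passed under every alternative. Array number limits precision: the median SE was 0.28 over both hours and 0.39 at 6 h.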

Other observations

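Genes that passed from the 8 arrays alone but lay outside the 15 per direction were 7, chosen here after their values were seen. Of these, CDC42EP3, an effector of the CDC42 GTPase, gave 0.97 ± 0.23 in the fit of 12 arrays and the kinase STK17B gave 1.04 ± 0.29. FZD4 gave -1.02 ± 0.22, IL4I1, an amino acid oxidase of myeloid cells, -1.24 ± 0.26 and ATF5 -1.06 ± 0.25. PTGS2, DHRS9 and the other probe sets of ATF5 are given above. Each of the 7 genes had the same sign in all 4 pairs, against 16.9% of all genes in either direction. Their choice by a paired fit favours such genes, so this adds no support.

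In the list of BCL2 family and apoptosis genes (21 tested, 15 below 0, median -0.17), the lowest was CFLAR, an inhibitor of caspase 8, at -1.04 ± 0.33 in its brightest probe set. Its next brightest set, 211316_x_at, gave -0.41 ± 0.22. The other CFLAR sets above the filter ran from -1.04 (217654_at) to 0.70 (237367_x_at), and only 237367_x_at lay above 0. In the Toll-like receptor list (16 tested, 11 above 0, median 0.12), PELI2, a ubiquitin ligase of this pathway, was highest at 0.87 ± 0.21. In the hypoxia and glycolysis list (28 tested, 18 above 0, median 0.05), SLC2A3 was highest and the peptide hormone ADM gave 0.62 ± 0.21, with 1.14 and 1.19 at 6 h and 0.27 and -0.11 at 9 h.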
